A study of Mus musculus with 20 samples.

Results

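Glucocorticoid-induced genes and metallothioneins were described in mouse hypothalamus as a fixed list of 10 genes, picked by name out of 53801 genes in the count tables. The list was chosen with earlier results of these data known. The shares of all genes set beside its counts are therefore a description and not a test of the list. The list holds Tsc22d3, Fkbp5, Zbtb16, Mt1, Mt2, Sgk1, Pdk4, Plin4, Ddit4 and Txnip. All 10 had enough counts to be tested, with between 104 and 6417 counts per gene and library. Ribosomal RNA-depleted total RNA was sequenced in 20 libraries. WT mice were C57BL/6J, and the KO mice (named MADIN, and written as magel2/necdin knokdown in the genotype field) carry a deletion of both Magel2 and Ndn, modelling Prader-Willi syndrome. Mice were killed 6 h after light on (day) or 18 h after it (night), with free access to food. That gives 4 groups of 5 libraries each, called WT_day, WT_night, KO_day and KO_night. The library called WT_day 5 has a title that repeats number 4, and it was given the free number. Age, sex and the strain background of the KO mice are not given in the sources used here, nor is it stated that each library is a separate animal, so the p-values cover only sample-to-sample spread, which may be technical.

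Glucocorticoids are adrenal steroid hormones whose blood level follows the daily cycle and stress. In nocturnal rodents corticosterone is lowest in the morning and rises toward the onset of darkness. The hormone binds the glucocorticoid receptor Nr3c1 and, in brain, also the mineralocorticoid receptor Nr3c2, and the bound receptor activates target genes in neurons, glia and vessels. Among the 10 genes, Tsc22d3 (GILZ), Fkbp5 and Zbtb16 are widely used readouts of that receptor. Metallothioneins are small metal-binding proteins induced by zinc through the factor Mtf1 and also by glucocorticoids. Sgk1, Pdk4, Plin4, Ddit4 and Txnip are targets with roles in ion transport, fuel use, lipid storage, growth control and redox balance, and they also respond to other signals such as fasting and insulin.

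The start regions of 4 members that hold letters of the receptor's palindromic element, of the zinc-response element, or both are shown. Ddit4 and another Sgk1 window, which held the zinc-response element only, are not shown. The windows come from RefSeq promoter entries (build GRCm38.p6) and run from 250 bases before the annotated start to 30 bases after it. Capitals mark matches to the glucocorticoid response element GNACANNNTGTNC or the metal response element (TGCACNC or TGCGCNC), searched on both strands.
Mt2, chr8:94172368-94172647, plus strand: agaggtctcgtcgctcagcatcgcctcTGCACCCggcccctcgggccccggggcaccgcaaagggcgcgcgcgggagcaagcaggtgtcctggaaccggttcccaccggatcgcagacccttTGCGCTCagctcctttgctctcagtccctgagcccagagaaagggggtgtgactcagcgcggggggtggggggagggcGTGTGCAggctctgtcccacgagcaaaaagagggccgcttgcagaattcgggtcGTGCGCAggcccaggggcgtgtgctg
Mt1, chr8:94178839-94179118, plus strand: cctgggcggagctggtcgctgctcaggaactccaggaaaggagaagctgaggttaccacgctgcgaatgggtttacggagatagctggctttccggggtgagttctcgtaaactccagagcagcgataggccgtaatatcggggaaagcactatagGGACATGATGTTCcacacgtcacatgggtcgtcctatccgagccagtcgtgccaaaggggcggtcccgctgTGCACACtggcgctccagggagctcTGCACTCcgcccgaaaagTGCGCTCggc
Sgk1, chr10:21993640-21993919, plus strand: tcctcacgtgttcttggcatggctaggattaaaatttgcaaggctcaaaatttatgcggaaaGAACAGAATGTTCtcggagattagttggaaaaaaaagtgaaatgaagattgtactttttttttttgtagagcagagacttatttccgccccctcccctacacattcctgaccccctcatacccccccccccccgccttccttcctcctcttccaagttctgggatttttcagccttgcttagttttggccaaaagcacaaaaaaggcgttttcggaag
Txnip, chr3:96557707-96557986, plus strand: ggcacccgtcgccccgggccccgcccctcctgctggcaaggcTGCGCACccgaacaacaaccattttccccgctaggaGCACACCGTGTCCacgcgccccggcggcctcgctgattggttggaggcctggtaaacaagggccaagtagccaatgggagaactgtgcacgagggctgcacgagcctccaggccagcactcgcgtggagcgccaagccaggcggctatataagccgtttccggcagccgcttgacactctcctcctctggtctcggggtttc
The palindromic element occurred in 3 of the 16 windows that matched 9 members by symbol, against 0.475% of all 32851 windows of 300 bases. It lay at positions -94 to -82 of Mt1, -188 to -176 of Sgk1 and -172 to -160 of Txnip, counted from the RefSeq start. The metal response element was common, with a match in 25.7% of all windows. Mt2 held 4 matches and Mt1 3, while Txnip, Ddit4 and another Sgk1 window held 1 each. The half-site AGAACA, present in 18.97% of all windows, was found for Sgk1 and Tsc22d3, and at Sgk1 2 of its matches overlap the palindrome. An E-box CACGTG (7.15% of windows) was found for Sgk1 and Fkbp5, and a forkhead site GTAAACA (3.65%) for Txnip. No member window held the cyclic AMP element TGACGTCA (1.79% of windows), the D-box TTATGTAA or TTACGTAA (1.06%) or the heat shock element GAANNTTCNNGAA (0.603%). These are matches of letters, with no measurement of binding. Zbtb16 had no entry.

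Libraries held 32066289 to 48697647 counts. Necdin transcript from Ndn, one of the deleted genes, stood at 0.248 to 1.01 CPM (counts scaled to library size, with trimmed mean of M-values factors) in the KO libraries and at 239 to 346 in 9 WT libraries. The library labelled WT_day 3 held 31.0 CPM of Ndn and 2.15 of Magel2 (15.6 to 19.5 in the other WT libraries), which goes against its label. The main values that move with it are also given without it. Title and time field disagree on the time of day for 6 libraries, namely KO_night 1, 2 and 3, KO_day 1 and 2, and WT_night 1, and the groups here follow the titles. Summed markers of hypothalamus (Sim1, Hcrt, Pmch, Agrp, Oxt, Avp and Nkx2-1) reached 669 to 1096 CPM in every library. Neuronal Tubb3 and meningeal Igf2 were listed with 0 counts throughout.

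In WT hypothalamus all 10 had a lower mean at night, and 5 of them (Mt2, Zbtb16, Mt1, Tsc22d3 and Txnip) fell past an adjusted p of 0.05, where 0.144% of all tested genes fell. The median change of the 10 was -0.59 on the log2 scale, beside 0.0049 over all 22181 tested genes. Leaving out the library labelled WT_day 3, 9 of 10 were lower with a median of -0.39, Ddit4 being at 0.04. By day, all 10 were lower in KO than in WT, with a median of -0.45, and Tsc22d3 fell past the threshold (1 of 10, where 0.0496% of all genes fell). Leaving out that library, 9 of 10 were lower by day with a median of -0.28, Ddit4 was at 0.12, and none passed in edgeR. At night the sign turned for most: 8 of 10 were higher in KO, and Mt1 rose (1 of 10), where 5.18% of all genes rose and 6.77% fell. Between night and day in KO none of the 10 passed edgeR's quasi-likelihood test, against 0.0721% of all genes. There, 2 of the 10 (Tsc22d3 and Plin4) had an unadjusted p under 0.05, for which no share of all genes is given here. DESeq2 called 0 of the 10 there, against 1.56% of all genes with a count. These comparisons share groups with each other, so their values are set side by side and not counted as separate support.

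**Figure D1:**
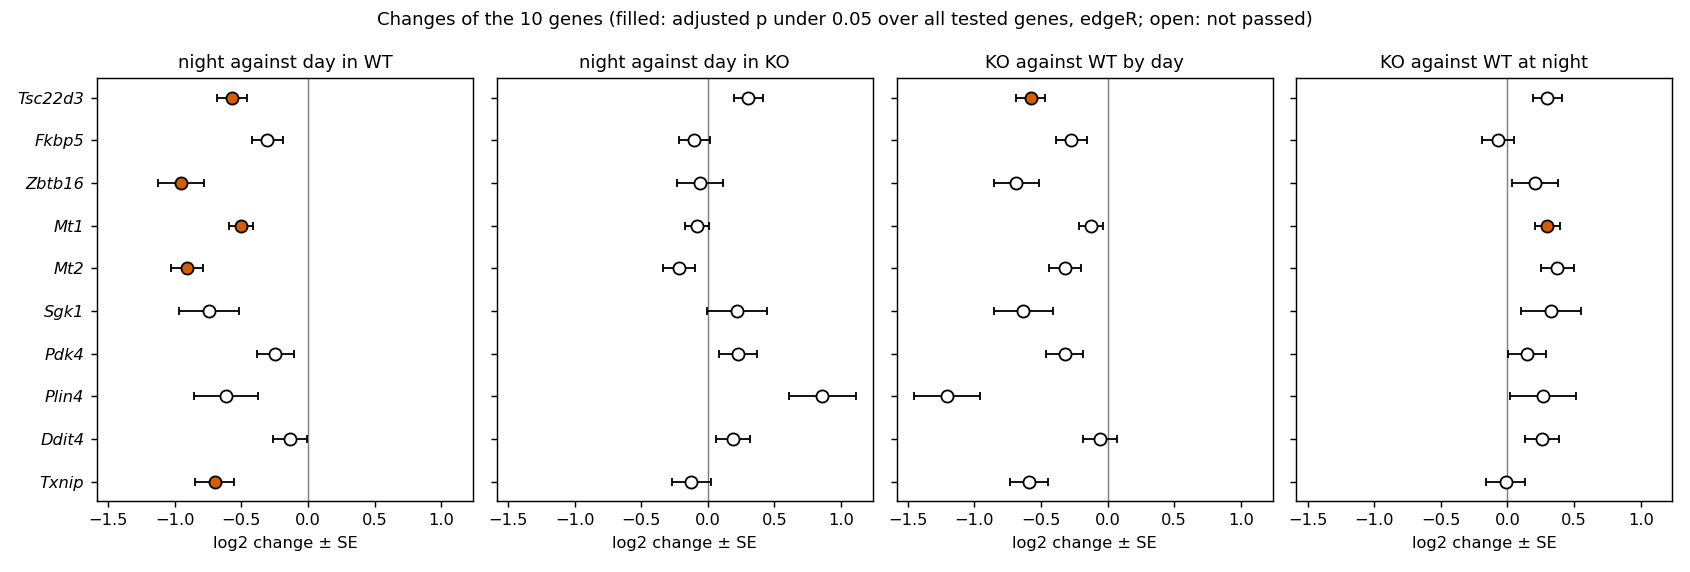
Log2 changes with their standard errors for the 10 genes in 4 comparisons, each panel one comparison, filled circles past an adjusted p of 0.05 over all tested genes in edgeR. All 10 points lie left of 0 for night against day in WT and for KO against WT by day, while 8 lie right of 0 for KO against WT at night.

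At an unadjusted p under 0.05, 8 of the 10 were lower at night in WT, against 8.13% of all tested genes, and 8 were lower by day in KO, against 4.29%. Both counts include the library labelled WT_day 3 and were not recomputed without it. Without that library the medians of the 10 shrank from -0.59 to -0.39 and from -0.45 to -0.28. The WT_day and WT_night libraries did not overlap for 6 members (Tsc22d3, Zbtb16, Mt1, Mt2, Sgk1 and Txnip), where 2.8% of all genes were lower in that way. KO_day lay wholly below WT_day for Tsc22d3 and Plin4 (1.24% of all genes), and KO_night wholly above WT_night for Mt1 (2.67%). WT_day had the highest group mean for 9 of the 10 genes, and KO_night for the other, Ddit4. WT_night had the lowest mean for 5, KO_day for 3 and KO_night for 2. Within WT the count of 5 depended on single libraries. Without the library labelled WT_day 3 it was 2 (Mt2 and Zbtb16), where 0.0536% of all genes passed. Without WT_day 5 it was 1 (Mt2), where 0.0403% passed. In the 14 libraries whose time labels do not conflict it remained 5, where 0.456% passed. With groups set by the time field it was 0, and no gene passed at all (0%).

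**Figure D2:**
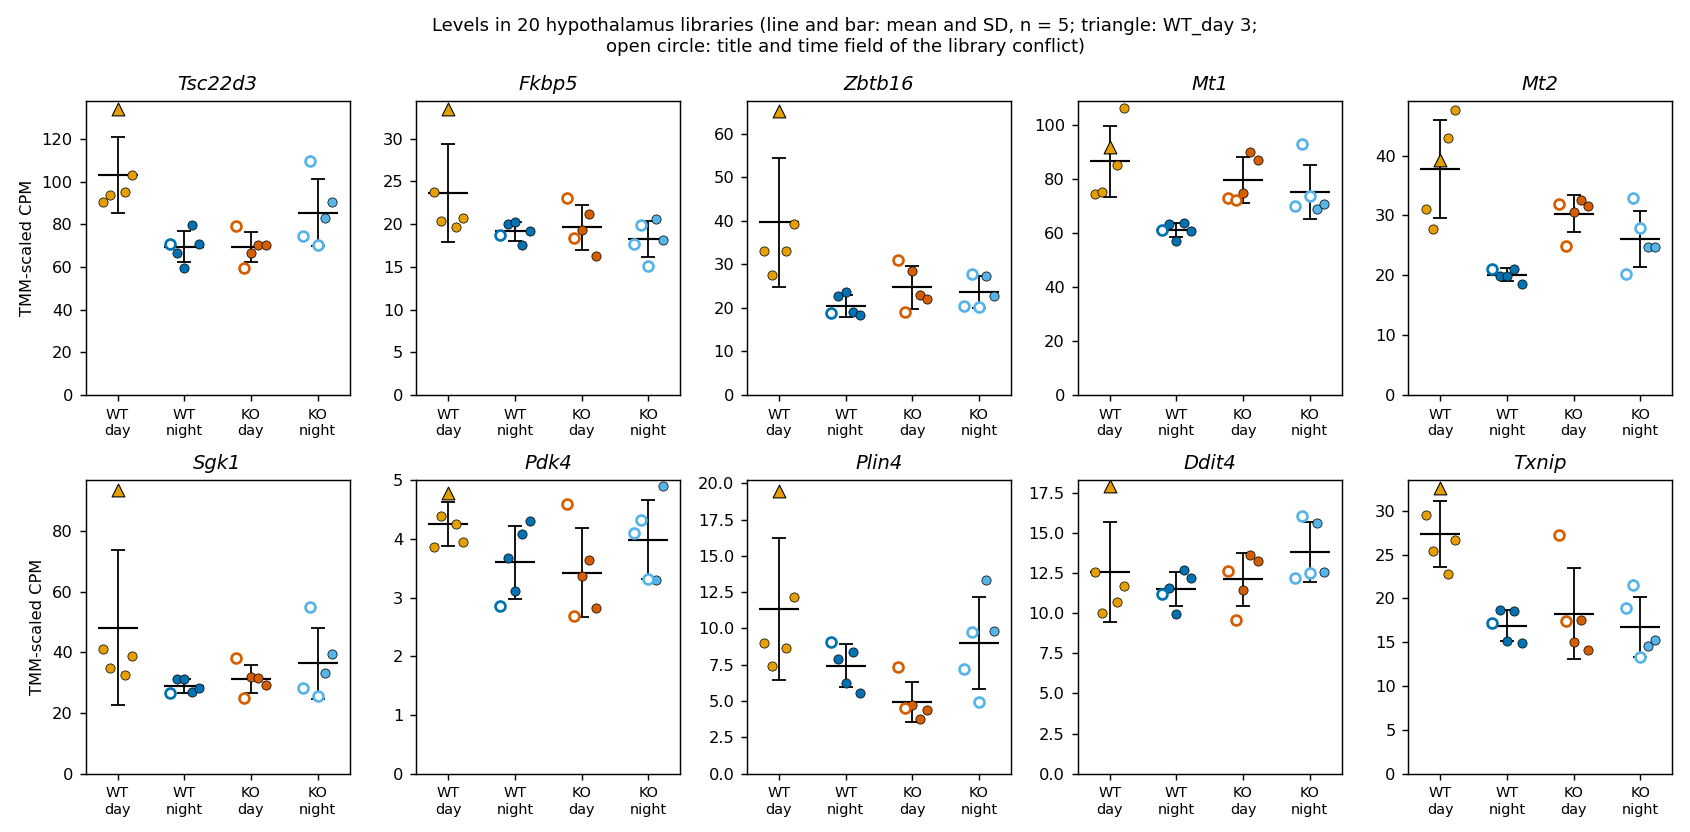
Scaled CPM of each gene (1 panel a gene, axis from 0) in the 20 libraries by group, with the mean and SD of 5; triangles are the library labelled WT_day 3 and open circles are libraries whose time labels conflict. For Mt1 the WT_night libraries lie between 56.9 and 63.7 CPM, below all other libraries, and for Sgk1 the triangle at 93.4 CPM stands far above the rest.

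Per kilobase of annotated exon, metallothionein transcripts were the most abundant of the 10. Averaged over the 20 libraries, Mt1 stood at 60.7 ± 10.3 CPM per kb (SD, n = 20) and Mt2 at 48.5 ± 13.7, so the SDs of this pair overlap. Tsc22d3 followed at 18.9 ± 4.28 CPM per kb. Sgk1 (7.38 ± 3.09), Ddit4 (7.12 ± 1.19), Txnip (6.34 ± 1.82) and Zbtb16 (5.14 ± 2.01) lay within one SD of their neighbours. Fkbp5 (2.13 ± 0.40), Plin4 (1.42 ± 0.64) and Pdk4 (1.09 ± 0.19) were lowest. Whether intronic reads were counted is not given in the sources used here, and long genes such as Fkbp5 and Zbtb16 would be touched most by it.

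Mt1 encodes metallothionein 1, which binds zinc and copper and is strong in astrocytes (chr8:94179082-94180327, plus strand, GRCm38). In WT_day the libraries 1 to 5 held 74.6, 75.2, 91.9, 85.2 and 107 CPM. In WT_night they held 61.3, 63.3, 56.9, 63.7 and 60.7 CPM. KO_day libraries stood at 73.0, 72.4, 74.9, 90.3 and 87.3 CPM, and KO_night libraries at 70.1, 93.0, 73.7, 68.97 and 70.8. The 5 WT_night libraries were thus the lowest 5 of all 20, with an SD of 2.70 CPM, while the other 3 groups overlapped. Mt1 fell at night in WT by 0.50 on the log2 scale (SE 0.09, 1.42-fold lower, adjusted p = 0.0207, edgeR's quasi-likelihood test with Benjamini-Hochberg adjustment). It rose in KO against WT at night by 0.30 (SE 0.09, 1.23-fold, adjusted p = 0.0368 in the same test). By day the KO difference was -0.12 (SE 0.09, adjusted p = 0.734).

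Both Mt1 calls lean on single libraries. Leaving out the library labelled WT_day 3 took the night fall in WT to an adjusted p of 0.0739, leaving out WT_day 5 to 0.0767 and leaving out WT_night 3 to 0.0605. The rise in KO at night passed in 14 of 20 fits that left out 1 library. Its adjusted p was 0.079 without WT_night 1, 0.0528 without WT_night 2, 0.117 without WT_night 3, 0.0637 without WT_night 5, 0.146 without KO_night 2 and 0.0723 without KO_night 3. The background there moved too: 2649 genes passed in all, and 122 passed without WT_night 3.

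Mt2, the neighbouring metallothionein gene on the same strand (chr8:94172664-94173568), showed the larger and steadier change. WT_day libraries held 31.1, 27.7, 39.2, 43.0 and 47.7 CPM in order, and WT_night libraries 21.1, 19.8, 19.9, 21.1 and 18.6 CPM. The lowest day library exceeded the highest night library. KO_day libraries gave 31.9, 24.9, 30.5, 32.6 and 31.5 CPM, and KO_night libraries 20.2, 32.8, 27.9, 24.7 and 24.8, so that the KO groups overlapped. Mt2 fell at night in WT by 0.91 (SE 0.12, 1.88-fold lower, adjusted p = 9.67e-04, edgeR), rank 3 by p among all 22181 genes, and it passed in every one of the 20 fits without 1 library. Its change in KO between night and day was -0.22 (SE 0.12, adjusted p = 0.352). KO against WT gave -0.32 by day (adjusted p = 0.354) and 0.37 at night (SE 0.12, adjusted p = 0.0502). The value is uncertain in one respect: the antisense gene Gm45774 carries 101% of the summed Mt2 count, so reads from the 2 strands cannot be told apart in this table. The copies Mt1 and Mt2 are also similar in sequence, and how reads matching both were treated is not given in the sources used here.

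Tsc22d3 (GILZ, a leucine zipper protein that mediates anti-inflammatory effects of glucocorticoids; chrX:140539528-140600659, minus strand) was the only member past the threshold by genotype in daytime. WT_day libraries held 90.4, 93.7, 134, 95.5 and 103 CPM, and WT_night libraries 70.9, 66.8, 59.8, 79.5 and 70.9. KO_day libraries held 79.4, 59.8, 66.7, 70.2 and 70.5 CPM, and KO_night libraries 74.7, 110, 70.1, 83.0 and 90.6. All WT_day libraries were above all WT_night and all KO_day libraries, whereas KO_night overlapped each of the other groups. Tsc22d3 fell by 0.58 in KO against WT by day (SE 0.11, 1.49-fold lower, adjusted p = 0.0309, edgeR) and by 0.57 at night against day in WT (SE 0.11, adjusted p = 0.0262). At night the KO difference was 0.30 (SE 0.11, adjusted p = 0.0742), and in KO night was 0.30 above day (SE 0.11, adjusted p = 0.163).

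Leaving out 1 library, Tsc22d3 passed in 15 of 20 fits for each of its calls. The daytime genotype call was lost without the library labelled WT_day 3 (adjusted p = 0.0805 at a log2 change of -0.45), WT_day 5 (0.0752), KO_day 3 (0.0977), KO_day 4 (0.0697) or KO_day 5 (0.0751). The WT time call was lost without the library labelled WT_day 3 (adjusted p = 0.0842 at a log2 change of -0.45), WT_day 5 (0.0767), WT_night 2 (0.0804), WT_night 3 (0.0777) or WT_night 5 (0.0566). With groups set by the time field neither call held: the daytime change was -0.35 (adjusted p = 0.191) and the WT time change -0.50 (adjusted p = 0.289). Without the library labelled WT_day 3 the other WT_day libraries averaged 95.7 ± 5.35 CPM (SD, n = 4), above every WT_night and KO_day value.

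Zbtb16 (PLZF, a zinc finger repressor strongly induced by glucocorticoids; chr9:48654297-48836222, minus strand) fell at night in WT by an amount that the library labelled WT_day 3 enlarged. WT_day libraries held 33.0, 27.6, 65.2, 33.2 and 39.4 CPM, and WT_night libraries 18.9, 22.7, 23.7, 18.9 and 18.3. KO_day libraries held 31.1, 19.1, 28.6, 22.9 and 22.2 CPM, and KO_night libraries 20.4, 27.8, 20.2, 27.3 and 22.8. The 2 WT groups were apart, and 65.2 CPM in the library labelled WT_day 3 was far above the next value. Zbtb16 fell at night in WT by 0.96 (SE 0.17, 1.94-fold lower, adjusted p = 0.0206, edgeR). Leaving out the library labelled WT_day 3 gave -0.69 with an adjusted p of 0.0417, and leaving out WT_day 5 gave an adjusted p of 0.0706. By day KO stood 0.69 lower with an adjusted p of 0.101 (log2 change -0.69, SE 0.17), and without that library the change was -0.42 with an adjusted p of 0.257. At night the difference was 0.21 (SE 0.17, adjusted p = 0.446).

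Fkbp5, a co-chaperone that lowers the receptor's hormone binding in a feedback loop (chr17:28399094-28517527, minus strand), had group means between 18.3 and 23.6 CPM. It held 19.7 to 33.5 CPM in WT_day with a median of 20.7, and 17.5 to 20.3 in WT_night with a median of 19.2. KO_day ran from 16.2 to 23.1 CPM and KO_night from 15.1 to 20.6. The top value again came from the library labelled WT_day 3, and without it WT_day averaged 21.1 ± 1.78 CPM (SD, n = 4). No comparison of Fkbp5 passed: night against day in WT gave -0.30 (SE 0.12, adjusted p = 0.222), and KO against WT by day -0.27 (SE 0.12, adjusted p = 0.443, edgeR). Without the library labelled WT_day 3 these were -0.13 and -0.10.

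Sgk1, a kinase that regulates sodium channels and transporters (chr10:21882184-21999903, plus strand), was the gene that the library labelled WT_day 3 moved most. WT_day libraries held 41.2, 34.8, 93.4, 32.6 and 38.8 CPM, and WT_night libraries 26.8, 31.4, 31.3, 27.0 and 28.2. KO_day libraries held 38.1, 25.0, 31.98, 31.7 and 29.4 CPM, and KO_night libraries 28.4, 55.01, 25.7, 33.3 and 39.5. Every WT_day library was above every WT_night library, but the gap between 32.6 and 31.4 CPM was small. The fitted night change in WT was -0.74 (SE 0.22, adjusted p = 0.132, edgeR), and -0.34 without the library labelled WT_day 3. KO against WT by day gave -0.63 (SE 0.22, adjusted p = 0.31), and -0.23 without that library.

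Plin4, a lipid droplet coat protein (chr17:56100591-56109803, minus strand), had the largest daytime genotype difference of the 10, which missed the threshold. WT_day libraries held 9.003, 7.45, 19.4, 8.63 and 12.2 CPM, and KO_day libraries 7.34, 4.51, 4.75, 3.75 and 4.42, with no overlap. WT_night libraries held 9.09, 7.92, 6.23, 8.39 and 5.59 CPM, and KO_night libraries 7.22, 9.73, 4.91, 13.3 and 9.82. KO_day was therefore the low group, and its highest library, KO_day 1, is one whose time labels conflict. The change by day was -1.21 (SE 0.25, 2.31-fold lower, adjusted p = 0.0513, edgeR). Leaving out the library labelled WT_day 3 gave -0.90 with an adjusted p of 0.13. The change was -1.41 in the 14 libraries without conflicting time labels, where Plin4 passed (adjusted p = 0.0213). In KO, night was above day by 0.86 (SE 0.25, adjusted p = 0.103), and without KO_day 1 by 1.03 with an adjusted p of 0.0446. Plin4 shares 17 bases with Hdgfl2 on the other strand, whose summed count is larger.

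Pdk4, the kinase that shuts pyruvate dehydrogenase during fasting (chr6:5483351-5496309, minus strand), was the weakest transcript. It ran from 3.86 to 4.79 CPM in WT_day, 2.85 to 4.31 in WT_night, 2.69 to 4.59 in KO_day and 3.31 to 4.90 in KO_night. The 4 ranges overlapped, and with 104 to 229 counts a library the counting error is largest for this gene. Night against day in WT gave -0.24 (SE 0.14, adjusted p = 0.407), and KO against WT by day -0.32 (SE 0.14, adjusted p = 0.454, edgeR).

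Ddit4 (REDD1, an inhibitor of the growth kinase mTORC1; chr10:59949669-59951834, minus strand) had the smallest daytime and WT time differences of the 10. It ran from 9.98 to 17.9 CPM in WT_day, 9.94 to 12.7 in WT_night, 9.56 to 13.6 in KO_day and 12.2 to 16.1 in KO_night. At night KO against WT gave a log2 change of 0.26 (SE 0.13, adjusted p = 0.177, edgeR). The daytime difference of -0.06 (SE 0.13, adjusted p = 0.935) became 0.12 without the library labelled WT_day 3.

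Txnip, which binds thioredoxin and restrains glucose uptake (chr3:96557957-96561883, plus strand), fell at night in WT. WT_day libraries held 29.5, 25.4, 32.6, 22.8 and 26.6 CPM, and WT_night libraries 17.2, 18.6, 15.2, 18.5 and 14.9. KO_day libraries held 27.2, 17.4, 15.01, 17.6 and 14.1 CPM, and KO_night libraries 18.9, 21.5, 13.3, 14.6 and 15.2. Apart from KO_day 1, whose time labels conflict, every KO library was below every WT_day library. The WT night fall was 0.70, that is, a log2 change of -0.70 (SE 0.14, 1.62-fold lower, adjusted p = 0.0395, edgeR). It passed in 12 of 20 fits that left out 1 library. The adjusted p was 0.0903, 0.0575, 0.123 and 0.102 without WT_day 1, WT_day 2, the library labelled WT_day 3 and WT_day 5. It was 0.0702, 0.0804, 0.0955 and 0.0809 without WT_night 1, 2, 3 and 5. KO against WT by day gave -0.59 (SE 0.14, adjusted p = 0.0989). In the 14 libraries without conflicting labels it was -0.82 with an adjusted p of 0.00228. The antisense gene Gm15441 spans all of Txnip and carries 101% of its summed count, so these reads cannot be assigned to a strand.

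Whether the day-night change differed between genotypes was tested as an interaction, KO night minus WT night less the same difference by day. All 10 members had a positive term, which follows from the daytime and night differences given above. At an unadjusted p under 0.05 there were 8, against 10.6% of all genes with a positive term at that p. This count was not recomputed without the library labelled WT_day 3. After adjustment edgeR called none of the 10 (0% of all tested genes passed), while DESeq2 called 5 (Tsc22d3, Plin4, Mt2, Zbtb16 and Mt1), against 3.28% of the 37304 genes with a count. The terms were 0.88 for Tsc22d3 (SE 0.16, adjusted p = 0.0542, rank 2 by p among all genes), 1.47 for Plin4 (SE 0.35, adjusted p = 0.0588) and 0.69 for Mt2 (SE 0.17, adjusted p = 0.0591). Zbtb16 had 0.89 (adjusted p = 0.0726), Mt1 0.42 (adjusted p = 0.0866) and Sgk1 0.96 (adjusted p = 0.0978). Leaving out the library labelled WT_day 3, the terms were 0.75 for Tsc22d3, 1.17 for Plin4, 0.66 for Mt2, 0.62 for Zbtb16, 0.39 for Mt1 and 0.55 for Sgk1, with adjusted p of 0.0941 to 0.168. In edgeR fits without 1 library the count ran from 0 to 5. It reached 5 without KO_day 1 (Tsc22d3, Zbtb16, Mt2, Plin4 and Txnip), where 2.12% of all genes passed, and without KO_night 4 (with Mt1 in place of Txnip), where 6.76% did. It was 4 without WT_night 4 (6.95% of all genes) and 3 without KO_day 4 (3.2%). It was 1 (Tsc22d3) without WT_day 2 (0.0358%) or KO_night 3 (0.0268%). Averaged over both times of day, no member passed in KO against WT (1.32% of all genes did), and DESeq2 called 0 (2.82% of all genes). In edgeR 3 had an unadjusted p under 0.05 (Txnip, Plin4 and Fkbp5), for which no share of all genes is given here. Txnip passed there without KO_day 1 (log2 change -0.39, adjusted p = 0.034).

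Single libraries carried much of the spread among the 10 genes. The library labelled WT_day 3 was above the mean of all libraries for 10 of 10 genes, with a median deviation of 0.75 on the log2 scale, and it was the highest library for 7 of them. KO_night 2 was also above the mean for all 10 (median 0.28), and KO_day 2 was below it for all 10 (median -0.40) and lowest of all libraries for 4. WT_night 1, WT_night 3 and WT_night 5 each lay below the mean for 9 of 10 genes. KO_night 2 and KO_day 2 are among the libraries whose time labels conflict.

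**Figure D3:**
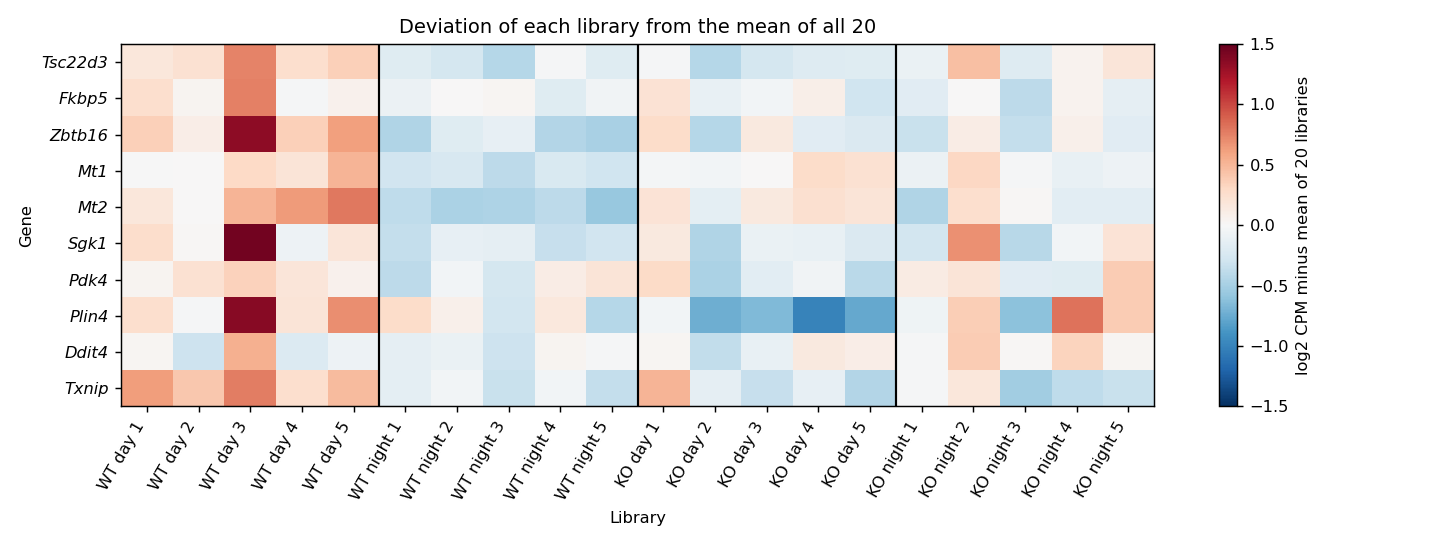
Deviation of each library (columns, 5 a group, black lines between groups) from the mean of all 20 for each gene (rows), in log2 CPM, red above and blue below. The column of the library labelled WT_day 3 is red in all 10 rows, reaching 1.44 for Sgk1, and the WT_night columns are mostly blue.

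Within groups the 10 genes varied together across libraries. Deviations of log2 CPM from the group mean were correlated for 45 pairs over 20 libraries. All 45 pairs had a positive Pearson r, with a median of 0.53, and 18 passed a within-group permutation test after adjustment over the 45 (7 by Spearman's rho). Zbtb16 and Sgk1 were the closest pair (r = 0.86, permutation p = 1.6e-04, adjusted 0.0072; rho = 0.86, adjusted permutation p = 0.00405). Without the 2 libraries farthest from the median of Zbtb16, r was 0.71. Fkbp5 with Sgk1 followed (r = 0.85, rho = 0.82), and then Fkbp5 with Zbtb16 (r = 0.82, rho = 0.74) and Tsc22d3 with Sgk1 (r = 0.81, rho = 0.65). Their adjusted permutation p was 0.0104 to 0.0108 by Pearson and 0.00405 to 0.0417 by Spearman, and without the 2 farthest libraries their r was 0.59 to 0.68. Mt1 and Mt2 varied together (r = 0.79, rho = 0.71, adjusted permutation p = 0.0105 and 0.0263). With the other genes their r ran from 0.04 (Fkbp5 with Mt1) to 0.55 (Tsc22d3 with Mt1), and none of these 16 pairs passed. Without the library labelled WT_day 3, 43 pairs remained positive and 2 passed, Zbtb16 with Sgk1 (r = 0.70) and Mt1 with Mt2 (r = 0.79). The other 16 pairs did not pass without that library. All pairs share the libraries' depth and scaling.

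**Figure D4:**
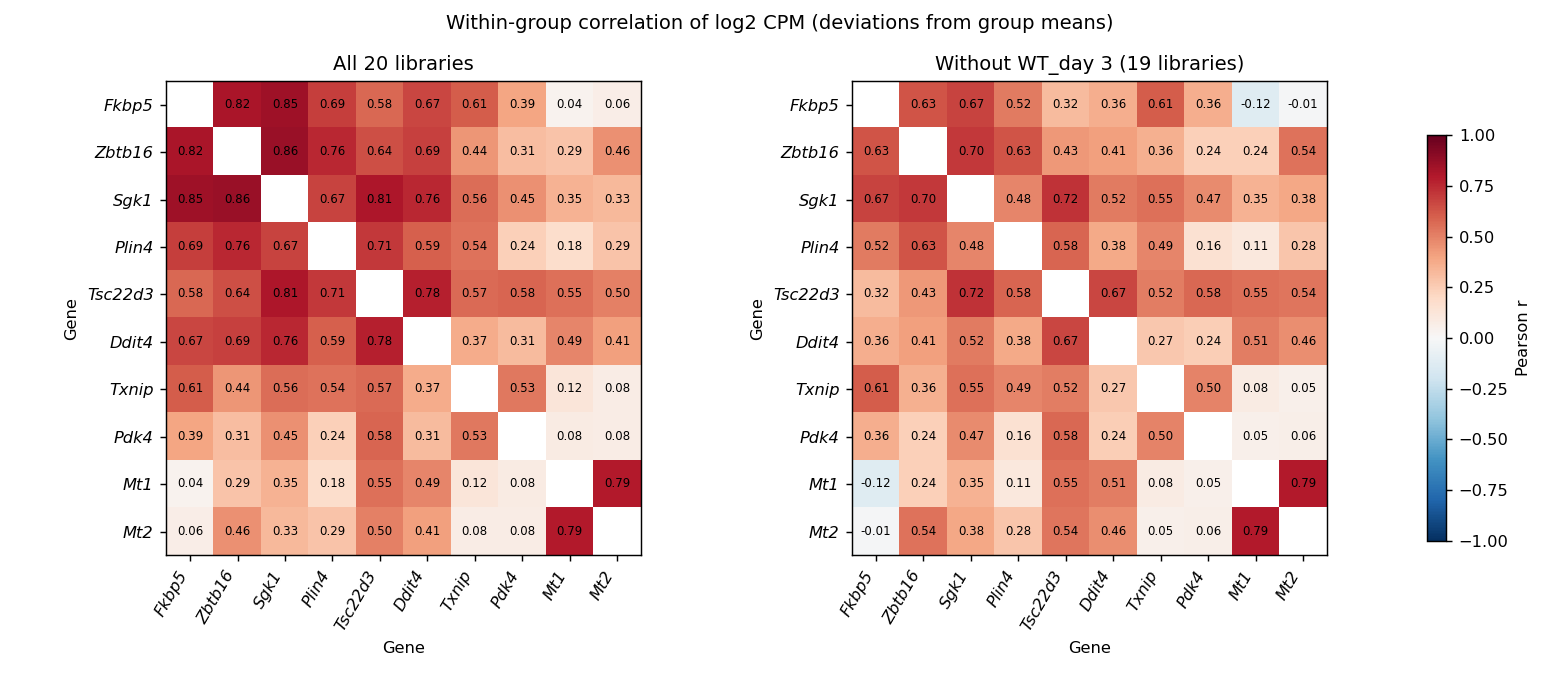
Pearson r of deviations of log2 CPM from group means for each pair of the 10 genes, over 20 libraries (left) and over 19 without the library labelled WT_day 3 (right), blank on the diagonal. The block of Fkbp5, Zbtb16 and Sgk1 is at 0.82 to 0.86 on the left and paler on the right, while Mt1 with Mt2 stays at 0.79.

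The genes whose within-group pattern was most like Tsc22d3, out of 13917 genes ranked over 20 libraries, were Gpt2 (r = 0.93), Sdc4 (0.89), Fbln5 (0.86), Fam107a (0.84) and Nfkbia (0.83). Nfkbia encodes an inhibitor of NF-kappaB and is itself a known glucocorticoid target. For Fkbp5 they were Sgk1 (r = 0.85), Plekhf1 (0.83), Cd163 (0.82), Zbtb16 (0.82) and Sgf29 (0.80). Mt2 was most like Mobp (r = 0.81), Mal (0.80), Castor1 (0.80), Slc7a5 (0.79) and Zfp488 (0.79), of which Mobp and Mal encode myelin proteins. Without the library labelled WT_day 3 these values were 0.74 to 0.92 for Tsc22d3, 0.67 to 0.73 for Fkbp5 apart from Zbtb16 at 0.63, and 0.79 to 0.82 for Mt2.

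Other known glucocorticoid targets had medians of the same sign and smaller size. Of 23 such genes (among them Per1, Klf9, Errfi1, Nfkbia and Cdkn1a), 18 were lower at night in WT, with a median of -0.31, and 17 were lower in KO by day, with a median of -0.24. Values of this list and of the other related lists include the library labelled WT_day 3, and none was recomputed without it. In edgeR 0 passed in either comparison, with 13 and 12 at an unadjusted p under 0.05 in either direction. Il6ra among the 13, and Per1 and Tiparp among the 12, were higher. At that p, 8.13% and 4.29% of all genes were lower, which are shares for lower genes alone. At night 18 were higher in KO with a median of 0.17, and 1, Rhob, a small GTPase, rose by 0.24 (SE 0.06, adjusted p = 0.021), beside 5.18% of all genes that rose there. Per1, a clock gene that also responds to glucocorticoids, had differences of 0.24 by day and 0.20 at night in KO, neither past the threshold. None of the 23 passed for time in KO, for the interaction or for the average over times, where 0.0721%, 0% and 1.32% of all genes passed. At an unadjusted p under 0.05 there were 3, 12 and 6, in either direction. At that p, 10.6% of all genes had a positive interaction term. The share of all genes in either direction at that p is not given here, for this list or for the lists below. Such counts are therefore descriptions only.

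Of 13 genes for receptors and hormone handling none passed by day or between night and day in WT in edgeR, with 2 and 3 at an unadjusted p under 0.05. At night in KO, Nr3c2, the mineralocorticoid receptor, fell by 0.31 (SE 0.08, adjusted p = 0.0232), and Ncoa2, a receptor coactivator, fell by 0.19 (SE 0.06, adjusted p = 0.0346), in a comparison where 6.77% of all genes fell. The glucocorticoid receptor Nr3c1 differed by 0.11 by day and -0.03 at night (adjusted p = 0.387 and 0.647). Hsd11b1, which regenerates active hormone, differed by 0.14 and 0.17 (adjusted p = 0.812 and 0.423).

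Of 13 genes of metal handling and oxidative response, Srxn1, the sulfiredoxin that repairs peroxiredoxins, fell at night in WT by 0.29 (SE 0.06, adjusted p = 0.0262). In WT 0.144% of all genes fell in that way. Srxn1 also rose in KO at night by 0.19 (SE 0.06, adjusted p = 0.0322), beside 5.18% of all genes that rose there. Mt3, the brain metallothionein, had -0.33 at night in WT (SE 0.09, adjusted p = 0.116) and 0.28 in KO at night (SE 0.09, adjusted p = 0.0532). None of the 13 passed by day, with 3 at an unadjusted p under 0.05. Among 16 relatives of the 10 genes, Arrdc3, an arrestin related to Txnip, fell at night in WT by 0.35 (SE 0.08, adjusted p = 0.0455). Tsc22d4 rose in KO at night by 0.26 (SE 0.07, adjusted p = 0.0288), again beside 5.18% of all genes. None of the relatives passed by day, with 3 at an unadjusted p under 0.05, and the list medians were between -0.06 and 0.08 in these 3 comparisons.

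**Figure D5:**
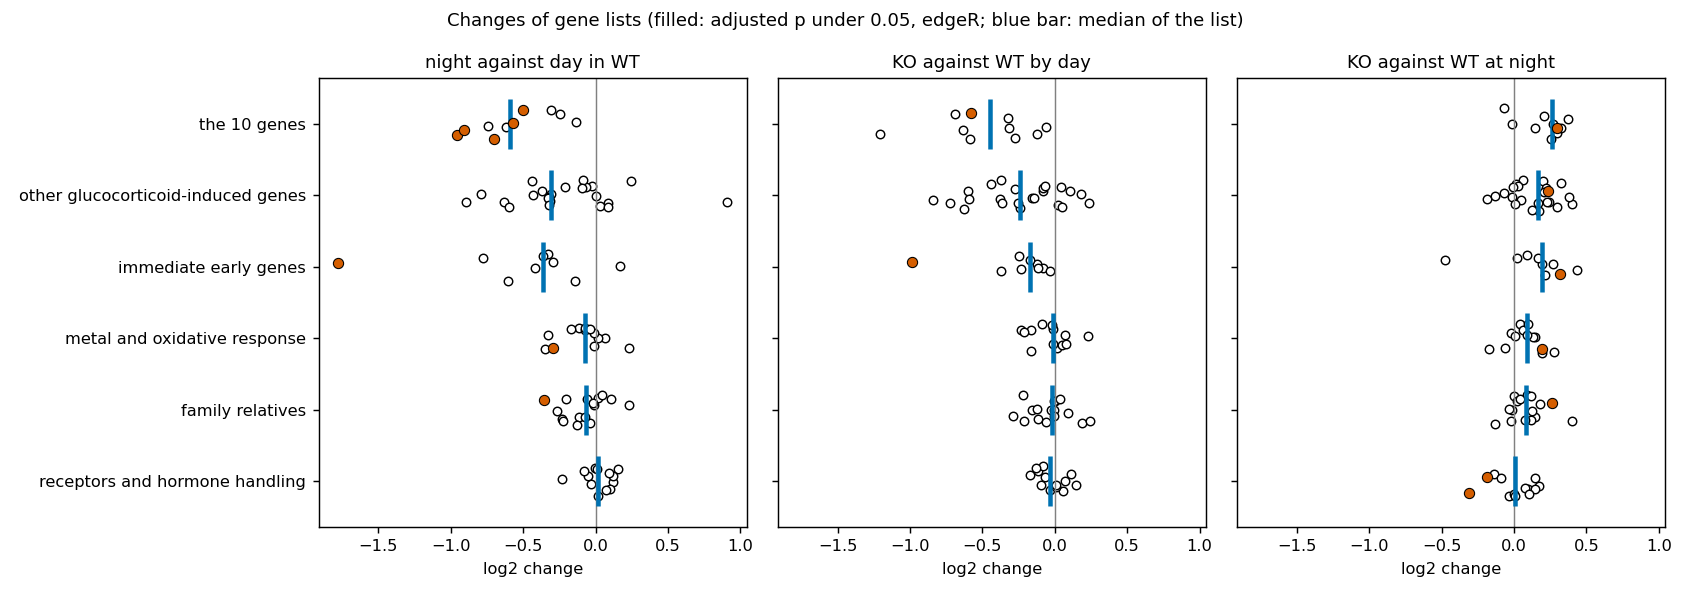
Log2 changes of single genes (points, spread vertically for legibility) in the 10 genes and 5 related lists for 3 comparisons, filled past an adjusted p of 0.05 in edgeR, with the list median as a blue bar. The bar of the 10 genes lies at -0.59, -0.45 and 0.26 from left to right, and those of receptors, relatives and metal response lie near 0. The bar of the other glucocorticoid-induced genes lies at -0.31, -0.24 and 0.17, and that of the immediate early genes at -0.37, -0.17 and 0.19.

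Of 9 immediate early genes, which mark recent neuronal activity, 1 passed between night and day in WT and 0 in KO (2 there at an unadjusted p under 0.05). Their directions were like those of the 10 genes. Of the 9, 8 were lower at night in WT (median -0.37) and 9 were lower in KO by day (median -0.17). At night 8 were higher in KO (median 0.19), and 8 had a positive interaction term (median 0.35). Fosb fell at night in WT by 1.78 (SE 0.22, adjusted p = 2.31e-04) and by day in KO by 0.99 (SE 0.19, adjusted p = 0.0395). Arc rose at night in KO by 0.32 (SE 0.09, adjusted p = 0.0264), beside 5.18% of all genes that rose there. Their summed CPM was 47.3 to 53.2 in WT_day and 33.5 to 43.5 in WT_night, without overlap, as for 6 of the 10 genes. It was 34.1 to 51.8 in KO_day and 39.3 to 48.4 in KO_night, and their part in the result was not tested.

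Some cell type markers moved between the same groups. The summed level of 8 endothelial markers was 168 to 171 CPM in WT_day and 175 to 195 in WT_night, and that of 6 meningeal and fibroblast markers 38.8 to 54.3 and 59.8 to 88.3. Both were thus higher in WT_night, where the 10 genes were lower. For the other 9 cell type lists, the ranges of the 2 WT groups overlapped, with hypothalamic markers at 833 to 975 and 669 to 858 CPM. Between KO_day and WT_day all 11 lists overlapped. At night the hypothalamic markers were 902 to 1096 CPM in KO_night and did not overlap WT_night, and the other 10 lists did. In that comparison single markers passed: 2 of 7 hypothalamic, 2 of 6 oligodendrocyte and 1 of 6 astrocyte markers rose, and 1 of 5 microglial and 1 of 5 blood markers fell. Of all genes, 5.18% rose and 6.77% fell there. All 6 oligodendrocyte and all 6 astrocyte markers were higher in KO there, with medians of 0.20 and 0.09, where Mt1 rose. All 5 tested meningeal and fibroblast markers and all 4 tested choroid plexus markers were lower, with medians of -0.45 and -0.17. Pituitary markers varied between libraries from 5.71 to 759 CPM. Their part in the results was not tested, and in bulk tissue fewer cells of a type and less RNA per cell cannot be told apart.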

How the data were processed

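The authors deposited raw whole-number counts per gene for each library, made with HISAT2 and featureCounts on mm10, per the submitters' processing notes; versions, annotation and strand setting are not given in the sources used here. The deposited count table of WT_night 3 is separated by tabs where the others use commas, and it was read as counts like the rest. Of 53801 genes, 53706 matched GENCODE M21 (GRCm38) by identifier.

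Genes were tested with edgeR 4.0.16 (R 4.3.3), with trimmed mean of M-values scaling, filterByExpr (minimum count 10), a quasi-likelihood fit of 4 group means and Benjamini-Hochberg adjustment over 22181 genes at 0.05. DESeq2 1.42.0 was an alternative. Scaled CPM was computed from the counts, and log2 CPM used a prior count of 2. Totals per library ran from 32066289 to 48697647 counts. The fit was also run on simulated counts, with the outcome not reported here. Those counts held no outlying or mislabelled library, so that run does not cover such libraries. Over the 40 pairs of libraries within groups, chi-square per degree of freedom ran from 5.58 to 53.7, so none repeats another within counting error. Correlations used 100000 permutations within groups, two-sided.

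Named are all 10 genes; of each related list, the genes past the threshold (at most 4 a comparison); and the 5 genes most like Tsc22d3, Fkbp5 and Mt2, with a mean CPM of at least 1. Per1, Nr3c1, Hsd11b1 and Mt3 fall outside that rule and were chosen after their values were seen. The members and lists were chosen with earlier results of these data known. Time was taken from the title, and for KO_day 5 from the time field. Alternatives covered scaling, filtering, the time field, conflicting labels, gene length, a replicate block, DESeq2 and each library left out.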

Additional observations from a re-analysis of the deposited data

Results flagged for a closer look

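In 6 of the 40 gene and group combinations 1 library stood apart from its group of 5 by Dixon's test at 95%, where chance gives about 1 in 20. The library labelled WT_day 3 stood above its group for Tsc22d3 (134.2 CPM) and Sgk1 (93.42 CPM). KO_night 2 was high for Mt1 (93.03 CPM), where the other KO_night libraries held at most 73.7. KO_day 2 was low for Mt2 (24.94 CPM). KO_day 1 was high for Plin4 (7.335 CPM) and Txnip (27.22 CPM). KO_night 2, KO_day 1 and KO_day 2 are libraries whose title and time field conflict, and the library labelled WT_day 3 carries low Ndn.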

How the results depend on the processing

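All 10 genes were recomputed under 29 alternatives. Each count of members past the threshold is followed in brackets by the share of all genes past it. For KO against WT by day it was 1 as reported (0.113%). It was 2 with median-ratio size factors in edgeR (0.144%), 4 with no count filter (0.161%) and 0 with groups set by the time field (0.665%). It was 3 in the 14 libraries without conflicting labels (0.39%) and 2 with the gene length trend removed (0.266%). With only the groups compared it was 2 (0.592%), and in DESeq2 also 2 (0.501%). Leaving out 1 library gave 0 to 3 (0.067% to 0.327%). At night it was 1 as reported (11.9%), 2 with no filter (5.77%), 0 by the time field (0.0179%) and 0 in the 14 libraries (0.0263%). It was 0 without WT_night 1, 2 and 3 (0.0479%), 0 with the length trend removed (5.32%) and 0 with only the groups compared (2.62%). In DESeq2 it was 2 (9.42%), and it ran from 0 to 3 when 1 library was left out (0.546% to 19.5%). Averaged over times it was 0 as reported (1.32%), 1 in the 14 libraries (0.254%) and 0 to 1 without 1 library (0.21% to 5.65%). For night against day in WT it was 5 as reported (0.275%) and 0 by the time field (0%). There it was 0 without WT_night 1, 2 and 3 (0.0392%), and 1 to 5 without 1 library (0.0403% to 0.801%). For KO it was 0 as reported (0.0721%) and 0 to 1 without 1 library (0% to 1.47%). The interaction gave 0 as reported (0%), 4 with no filter (0.281%) and 1 with the length trend removed (0.0361%). It gave 5 in DESeq2 (3.28%) and 0 to 5 without 1 library (0% to 6.95%). Of the correlated pairs (18), 2 passed without the library labelled WT_day 3. The causes were not tested.

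Replicate numbers did not pair the libraries: same-numbered libraries correlated at -0.167 to 0.303, and 4 of 20 matched best with their own number. With the number as a replicate block in edgeR, 1 member passed by day (Txnip, adjusted p = 0.0477, with Tsc22d3 at 0.0562), where 0.216% of all genes did. At night 0 passed (Mt1 at 0.0509), where 7.62% of all genes did, and averaged 0, where 0.978% did. For WT 4 passed (all reported but Tsc22d3, at 0.0615), where 0.194% of all genes did. For KO and for the interaction 0 passed, where 0.0496% and 0% of all genes did.

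Values that changed sign were small. By day, Ddit4 became 0.0918 by the time field, 0.0193 in the 14 libraries and ran from -0.128 to 0.118 without 1 library. At night, Fkbp5 became 0.0559 by the time field, 0.00677 in the 14 libraries and 0.0447 with the length trend removed, and Pdk4 became -0.0746 without WT_night 1, 2 and 3. Txnip at night became 0.15 by the time field and 0.0012 without WT_night 1, 2 and 3, and ran from -0.126 to 0.0599 without 1 library. Averaged, Mt2 became -0.0012 with the length trend removed and ran from -0.0181 to 0.0805, and Sgk1 from -0.249 to 0.0464. In WT between night and day, Ddit4 ran from -0.204 to 0.0444. In KO, Fkbp5 became 0.137 by the time field and 0.0398 in the 14 libraries, Zbtb16 0.0817, 0.0328 and, with the length trend removed, 0.0276 (-0.15 to 0.0269 without 1 library), Ddit4 -0.0708 by the time field, and Txnip 0.156 (-0.237 to 0.0574). Depth limits Pdk4 most, at 104 to 229 counts a library.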

Other observations

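The ratio of Mt2 to Mt1 CPM, chosen after the values were seen, differed between WT_night and WT_day. It was 0.329 ± 0.0187 at night and 0.433 ± 0.0492 by day (SD, n = 5 each), with an exact two-sided permutation p of 0.00794 over 252 arrangements and 0.0317 adjusted over 4 comparisons. The adjustment does not cover the choice of the ratio, so these p-values are descriptions only. For KO against WT the adjusted exact p was 0.19 by day (0.382 ± 0.0384 in KO_day) and 0.397 at night (0.345 ± 0.0342 in KO_night), and for night against day in KO 0.243. Since reads of Mt2 and the antisense gene Gm45774 cannot be told apart here, the ratio may include antisense reads, which was not tested.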
